A study of Triticum urartu with 18 samples.

Results

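The NAC transcription factors of Triticum urartu, a wild diploid wheat, were followed through grain filling in endosperm and compared with flag leaf. The deposited expression table annotates 96 of its 27121 genes as NAC. From these, 3 genes known from the same table for transcripts that climb with grain filling (TRIUR3_00447, TRIUR3_01582 and TRIUR3_25136) were set aside, and the remaining 93 genes, called members here, are described. Setting these genes aside lowers the number of members that are high in filling endosperm, so the counts of rises are also given with them. The table gives the members an identifier and the family name only, so no role is assigned to any single member, and none of them (0 of 93) was found in the RefSeq gene table for the species.

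NAC proteins form a large family found only in plants. They share a DNA-binding domain at the amino end, whereas the carboxyl end differs between members and activates or represses target genes. Members of the family are known from meristem boundaries, cell wall thickening, stress responses and leaf senescence, where a wheat NAC gene promotes the movement of nutrients out of the flag leaf into the grain. In cereal endosperm, including that of maize, some NAC proteins activate storage protein and starch synthesis genes.

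The plants were untreated wild type T. urartu accession PI 428198, grown in the field and harvested by days post anthesis (DPA). RNA was sequenced from endosperm at 5, 10, 15, 20 and 25 DPA, after removal of embryo, aleurone, seed coat and pericarp, and from flag leaf at 10 DPA. Each of the 6 groups had 3 libraries, described in the labels as independent biological replicates. Leaf was sampled at 10 DPA only, so 10 DPA endosperm is its match in age. Values are FPKM (sequenced fragments scaled for transcript length and for the library's mapped fragments), so levels of different genes can be compared per length.

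The libraries differed in composition. The total FPKM ranged between 1300333 and 3605504, and the 12 most abundant genes of a library took between 24.9% (5 DPA library 1) and 86.1% (20 DPA library 3) of it. In the 20 DPA libraries and 25 DPA library 1 that share was at least 83.4%. Size factors from the median ratio of the 4495 genes above 0 in all libraries were 3.91 to 4.43 at 5 DPA, 1.65 to 1.72 at 10 DPA, 0.932 to 1.11 at 15 DPA and 0.105 to 0.168 at 20 DPA. At 25 DPA they were 0.161, 1.49 and 2.02, so library 1 stood apart from the others of its stage, and in leaf they were 0.827, 1.88 and 2.14. Each comparison is given from the values as deposited and after median-ratio scaling. Detection counts and scaled sums use the factors above. The scaled tests use factors computed anew over the libraries of each fit, the 15 endosperm libraries for stages and the 6 libraries of both groups for tissues. Prolamins, the storage proteins of the starchy endosperm, took 17.1% to 17.997% of the total FPKM at 10 DPA and at most 0.0129% at 5 DPA, against at most 0.00102% in leaf. Their share was 20.4% to 22.1% at 15 DPA and 0.892% to 1.28% at 20 DPA. In 25 DPA libraries 1, 2 and 3 it was 0.382%, 12.1% and 1.99%. The starch synthesis genes summed to 1710 to 2055 FPKM at 15 DPA and 43.2 to 59.1 FPKM at 20 DPA. A set of 84 genes abundant in leaf was defined on these libraries. Each had a mean of at least 1000 FPKM in leaf and at least 10 times its 15 DPA endosperm mean. Their median was 452 to 510 FPKM at 5 DPA and 95.7 to 125 FPKM at 10 DPA, against 1794 to 2810 FPKM in leaf. No gene in the annotation marks aleurone, embryo, seed coat or pericarp, so these tissues could not be checked.

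As deposited, members were detected most often in leaf and early in the endosperm, and least often at 20 DPA. The libraries had 21372 to 21594 genes of the whole table above 0 at 5 DPA, 9328 to 11010 at 20 DPA and 14533 to 17866 in leaf. Members above 0 numbered 64 to 68, 28 to 29 and 47 to 61 in the same libraries, so the low count at 20 DPA was shared by the whole table. A mean of at least 1 FPKM was reached by 49 members in 5 DPA endosperm, 44 in the 10 DPA, 29 in the 15 DPA, 16 in the 20 DPA and 27 in the 25 DPA libraries, and by 51 in leaf. In all, 69 members reached it in at least 1 group, 11 reached it in all 6 groups, 18 in endosperm but not in leaf, and 11 in leaf but at no endosperm stage. The highest group mean was in leaf for 34 of the 69, at 5 DPA for 22, at 10 DPA for 7, at 15 DPA for 4, at 25 DPA for 2 and for 0 at 20 DPA. After median-ratio scaling a mean of 1 was reached by 32, 39, 29, 38 and 28 members at the 5 stages in order and by 47 in leaf. It was then reached in all 6 groups by 15 members, in endosperm but not in leaf by 22, and in leaf but at no endosperm stage by 14, again with 69 members in all. The highest mean was then in leaf for 33 members, at 5 DPA for 7, at 10 DPA for 6, at 15 DPA for 6, at 20 DPA for 15 and for 2 at 25 DPA. These 69 are not the same members: 6 were detected as deposited only and 6 after scaling only, of which 5 are among the 15 highest at 20 DPA. Of the 63 detected under both, 43 kept the same top group. The number of members highest in leaf was thus nearly the same under both scalings, but not all were the same members. TRIUR3_14109, TRIUR3_20284 and TRIUR3_32890 moved from leaf to 20 DPA after scaling, and TRIUR3_22118 and TRIUR3_24879 were no longer detected. TRIUR3_01346, TRIUR3_14140, TRIUR3_25713 and TRIUR3_32750 became highest in leaf. The ranking of 5 DPA and 20 DPA as top stage depended on the scaling. Neither top groups nor means of at least 1 FPKM were counted for all genes, so these counts have no background beside them. A level at 20 DPA after scaling is a low FPKM value divided by a small size factor.

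**Figure D1:**
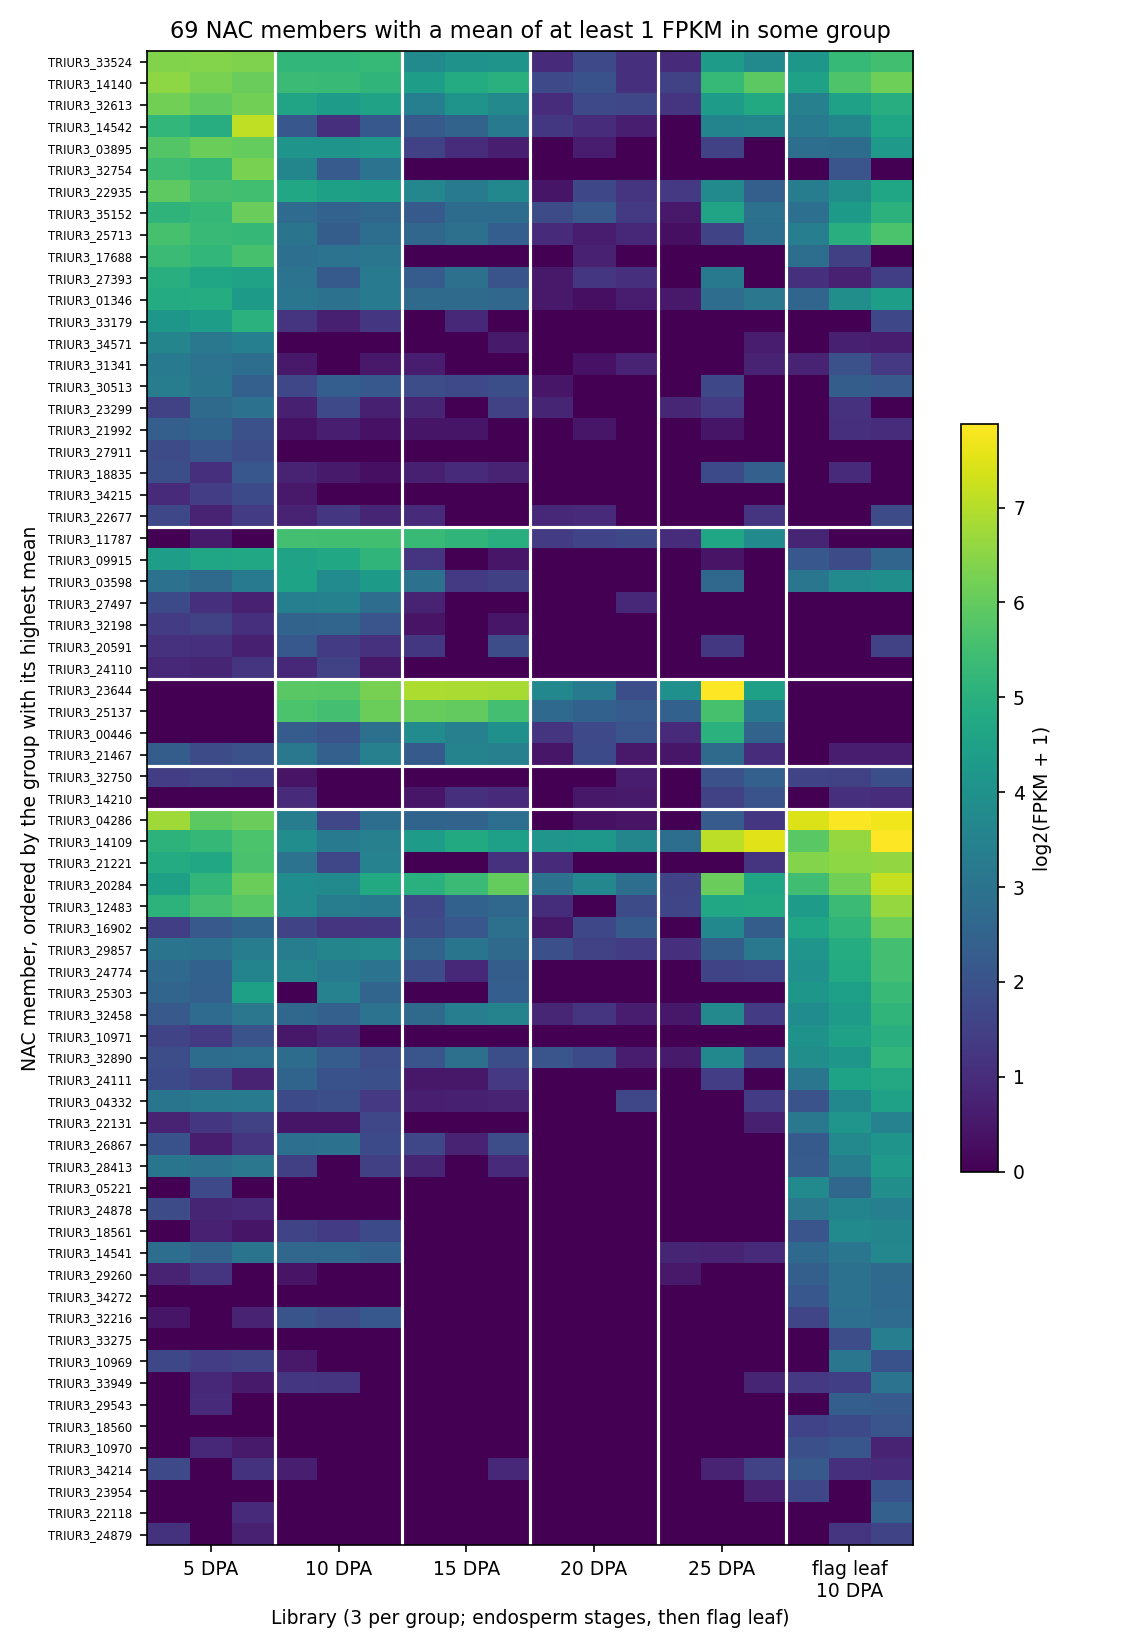
Level of the 69 members that reached a mean of 1 FPKM in some group, in each of the 18 libraries, as log2(FPKM + 1) (colour). Rows are ordered by the group with the highest mean and white lines separate the groups. The dark columns at 20 DPA and in 25 DPA library 1 are the libraries with the smallest size factors, and the lowest block holds the 34 members highest in leaf.

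The summed FPKM of the 93 members was 1007, 939 and 1238 at 5 DPA, 543, 480.3 and 572 at 10 DPA, 416, 446.8 and 462 at 15 DPA, and 67.4, 77.4 and 56.1 at 20 DPA. The 25 DPA libraries 1, 2 and 3 had sums of 42.9, 780.0 and 461, and the leaf libraries 687, 1094 and 1625. As deposited, 5 DPA was highest among the endosperm stages, but scaling turned this order round: the scaled sums were 227 to 317 at 5 DPA, 292 to 340 at 10 DPA, 404 to 493 at 15 DPA and 400.0 to 644 at 20 DPA, with 228 to 523 at 25 DPA and 580 to 831 in leaf. The 1003 genes of other transcription factor families also fell as deposited. Their sums were 15480 to 16391 FPKM at 5 DPA, 6802 to 6990 FPKM at 10 DPA and 332 to 491 FPKM at 20 DPA. In endosperm bulk RNA, fewer cells of a type and less RNA per cell cannot be told apart.

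The make-up of this pool within a library does not depend on how the libraries are scaled, but which members count as concentrated in a group does. At 5 DPA, 7 members concentrated at that stage (at least 50% of the sum of the 6 group means, and a mean of at least 10 FPKM) supplied 25.1%, 26.8% and 36.2% of the pool. These 7 were picked for their level at 5 DPA as deposited, so a large share there follows from the choice. Only TRIUR3_17688, TRIUR3_32754 and TRIUR3_33179 of the 7 stayed concentrated at 5 DPA after scaling. At 10, 15 and 20 DPA, 4 members that were near 0 at 5 DPA supplied 28.7% to 33.8%, 43.9% to 56.9% and 21.5% to 29.9%. These were TRIUR3_23644, TRIUR3_25137, TRIUR3_11787 and TRIUR3_00446, grouped after their values were seen. At 25 DPA they supplied 48.6%, 43.2% and 10.1% in the 3 libraries, against at most 0.112% in leaf. A single member, TRIUR3_14109, made up 1.73% to 2.47% of the pool at 10 DPA, 20.3% to 24.3% at 20 DPA and 14.4% to 39.4% at 25 DPA, against 8.4% to 14.4% in leaf. In leaf, 13 members concentrated there supplied 55.6%, 47.5% and 38.7%, and the same 13 supplied 13.3% to 17.0% at 5 DPA. The 13 were likewise picked for their level in leaf.

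**Figure D2:**
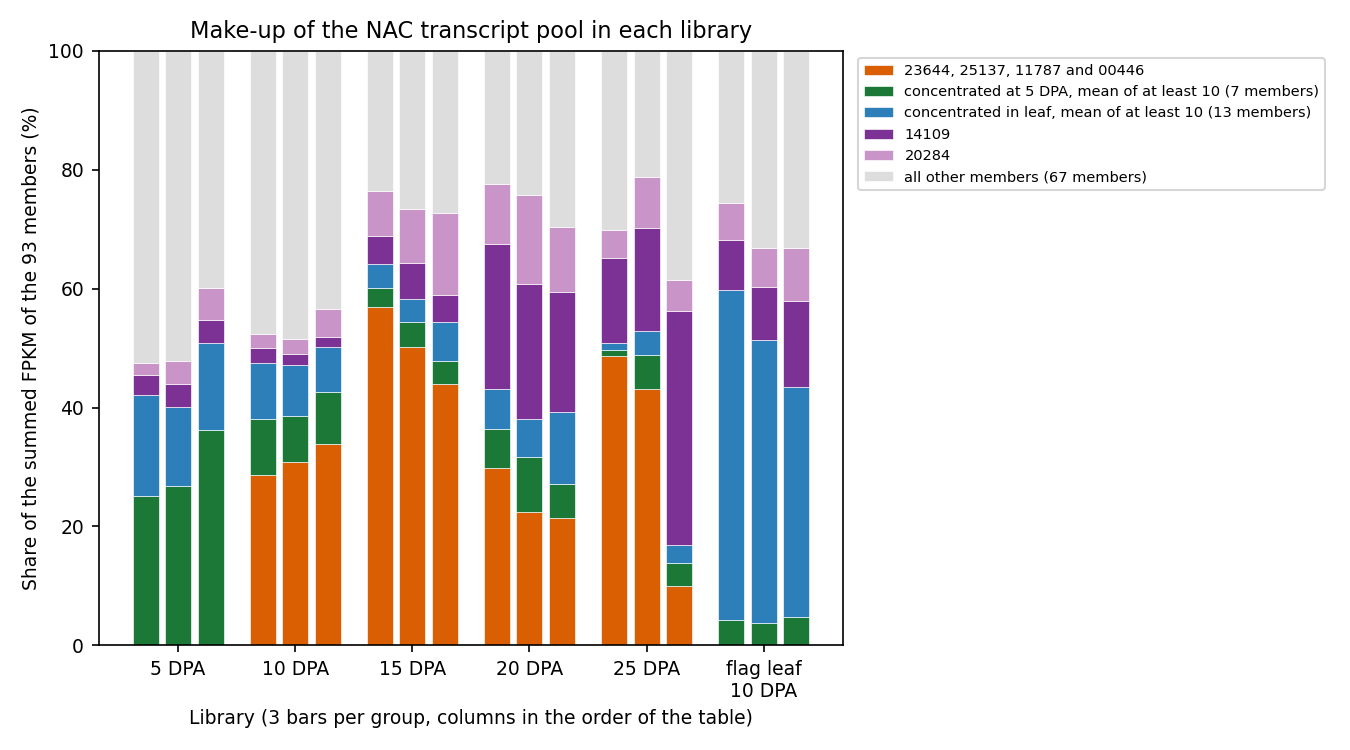
Share of the summed FPKM of the 93 members (%, 0 to 100) held by each set of members, with 1 bar per library and 3 bars per group. The orange segment (TRIUR3_23644, TRIUR3_25137, TRIUR3_11787 and TRIUR3_00446) is absent or at most 0.112% at 5 DPA and in leaf and reaches 56.9% at 15 DPA, and the purple segment (TRIUR3_14109) covers 20.3% to 24.3% at 20 DPA, 14.4% to 39.4% at 25 DPA and 8.4% to 14.4% in leaf.

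The comparison of 10 with 5 DPA endosperm covers the start of storage protein accumulation. A few members that were listed at or near 0 at 5 DPA were abundant at 10 DPA. As deposited more members fell than rose, and after scaling more rose than fell. Of the 55 members that passed the filter of at least 1 FPKM in at least 3 endosperm libraries, 9 were called higher at 10 DPA and 23 lower, where a call needs a limma adjusted p below 0.05 and a change of at least 1 on the log2(FPKM + 1) scale. Among all 19418 genes tested, 48.7% were called, 3.16% higher and 45.6% lower, so the members' falls, 41.8% of those tested, were near the background. With the 3 genes set aside, 12 NAC genes were called higher. After median-ratio scaling, 46 members were tested, and 12 were called higher and 6 lower, against 5.6% and 7.84% of 16611 genes. The median change of all genes was -1.23 as deposited and -0.14 scaled, and that of the members -1.13 and 0.08. As deposited, 6 of the 55 members were listed at 0 in all libraries of 1 stage, and the median of the other 49 was -1.15. Under both scalings 8 rises and 6 falls were called.

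TRIUR3_23644 had 57.2, 56.3 and 75.3 FPKM at 10 DPA, against 0 in each of the 5 DPA libraries (adjusted p = 2.81e-05, limma; scaled 3.52e-04). It had 120.0, 117 and 113 FPKM at 15 DPA, which made it the most abundant member of that stage, then 11.7, 8.6 and 2.72 FPKM at 20 DPA. At 25 DPA the libraries gave 14.5, 234 and 21.2 FPKM, and leaf was listed at 0 throughout. No fold is given where a group is listed at 0. TRIUR3_25137 had 49.6, 45.5 and 68.0 FPKM at 10 DPA, against 0 in each library at 5 DPA (adjusted p = 3.69e-06; scaled 2.38e-05). Its 15 DPA libraries had 65.0, 62.4 and 45.3 FPKM and overlapped those of 10 DPA.

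TRIUR3_11787 had 45.2, 43.7 and 43.7 FPKM at 10 DPA, against 0, 0.47 and 0 FPKM at 5 DPA, a log2 change of 5.31 (SE 0.67, adjusted p = 1.6e-05, limma; scaled 4.59). Its level was 38.5, 35.0 and 30.1 FPKM at 15 DPA and 1.57, 2.0 and 2.3 FPKM at 20 DPA. TRIUR3_00446 was the weakest of the 4, with 3.9, 3.03 and 6.49 FPKM at 10 DPA, against 0 in every library at 5 DPA (adjusted p = 0.0116; scaled 0.041). It reached 13.04, 9.71 and 14.51 FPKM at 15 DPA. The calls of these 4 members at 10 against 5 DPA held when any 1 library was left out. TRIUR3_00446 and TRIUR3_25137 carry identifiers next to 2 of the genes set aside, TRIUR3_00447 and TRIUR3_25136. Over the 12 libraries of 10 to 25 DPA, TRIUR3_00446 had 1.61% to 8.74% of the FPKM of TRIUR3_00447, and TRIUR3_25137 had 18.9% to 51.1% of that of TRIUR3_25136. The 8.74% rested on 3.24 FPKM of TRIUR3_00446 in 20 DPA library 3. The 18.9% and 51.1% rested on 3.78 and 4.47 FPKM of TRIUR3_25137, in 20 DPA library 3 and 25 DPA library 1. Whether these ratios varied beyond counting error was not tested. How reads of related genes were divided in the counting is not given in the sources used here, so the levels of neighbouring members are uncertain to that extent.

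**Figure D3:**
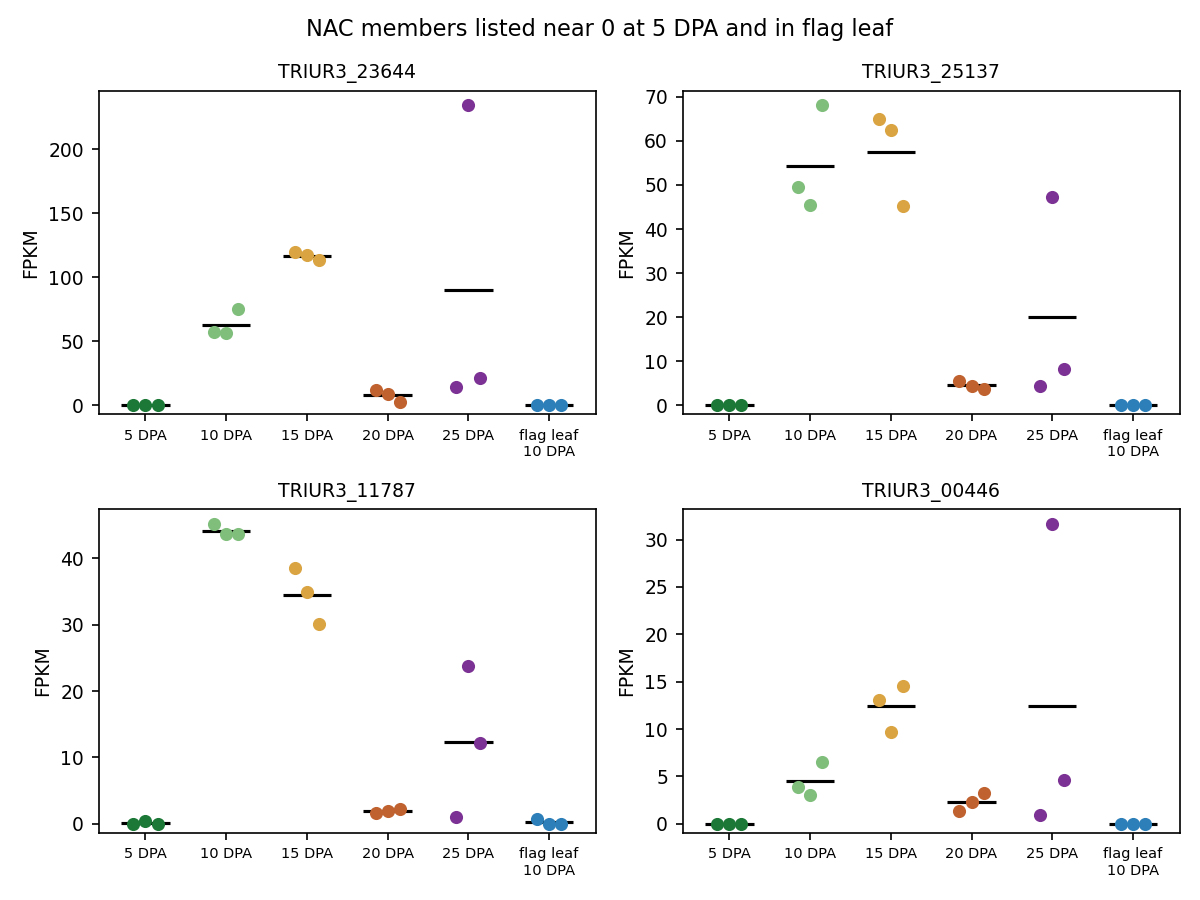
FPKM of TRIUR3_23644, TRIUR3_25137, TRIUR3_11787 and TRIUR3_00446 in each library (points) with the mean of each group (bar), in 5 endosperm stages and flag leaf; each panel has its own linear axis. The 4 members are at or near 0 at 5 DPA and in leaf, and 25 DPA library 2 is the highest library of its stage in every panel.

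Other rises at 10 DPA were smaller. TRIUR3_27497 had 9.48, 10.1 and 6.07 FPKM at 10 DPA, against 2.42, 1.11 and 0.64 FPKM at 5 DPA (log2 change 2.04, SE 0.35, adjusted p = 2.51e-04, limma; scaled 2.09), and the rise was not called with a pseudocount of 0.1. It was at most 0.89 FPKM in any later endosperm library and listed at 0 in leaf. TRIUR3_26867 had 6.41, 6.61 and 2.39 FPKM at 10 DPA, against 2.97, 0.55 and 1.25 FPKM at 5 DPA (log2 change 1.26, SE 0.39, adjusted p = 0.0148, limma). The libraries of these stages overlapped, and the call was lost with a pseudocount of 0.1. It was also lost without 5 DPA library 2, 10 DPA library 1 or 10 DPA library 2. At 15 DPA this member had 2.18, 0.74 and 2.62 FPKM, overlapping 10 DPA, and was not called lower. The other 3 members called higher, TRIUR3_32198, TRIUR3_32216 and TRIUR3_18561, had means of 4.29, 3.09 and 2.04 FPKM at 10 DPA. In endosperm, TRIUR3_32216 and TRIUR3_18561 reached 1 FPKM only at 10 DPA, so they passed the filter through that stage alone. After scaling, TRIUR3_03598, TRIUR3_09915, TRIUR3_24111 and TRIUR3_29857 were also called higher at 10 DPA.

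Among the falls, 6 held under both scalings. TRIUR3_33179 had 1.32, 0.62 and 1.36 FPKM at 10 DPA, against 16.9, 19.8 and 31.4 FPKM at 5 DPA (log2 change -3.47, SE 0.31, adjusted p = 5.11e-07, limma; scaled -1.92). TRIUR3_34571 was listed at 0 in all 10 DPA libraries, against 10.9, 7.88 and 9.66 FPKM at 5 DPA (adjusted p = 7.64e-08; scaled 1.47e-05). It reached 1 FPKM only at 5 DPA, so it passed the filter through the group where it was high. TRIUR3_32754 had 11.4, 3.76 and 6.98 FPKM at 10 DPA, against 42.2, 37.4 and 77.5 FPKM at 5 DPA (log2 change -2.70, SE 0.36, adjusted p = 2.74e-05; scaled -1.39). At 15, 20 and 25 DPA no library had more than 0.84 FPKM of any of these 3 members. TRIUR3_14542 showed the largest fall, with 3.4, 1.08 and 3.46 FPKM at 10 DPA, against 36.3, 29.0 and 138.6 FPKM at 5 DPA (log2 change -3.97, SE 0.82, adjusted p = 0.00116; scaled -2.49). Its 5 DPA library 3 was far above the other libraries, and the fall was called without it. The remaining members of the 6 were TRIUR3_04286 (log2 change -3.62) and TRIUR3_25713 (log2 change -2.65).

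The falls of TRIUR3_35152, TRIUR3_03895, TRIUR3_17688, TRIUR3_21221, TRIUR3_27393 and TRIUR3_12483 at 10 against 5 DPA were called as deposited and not after scaling. TRIUR3_17688, for example, had 6.39, 6.98 and 7.53 FPKM at 10 DPA, against 40.0, 35.9 and 47.3 FPKM at 5 DPA (log2 change -2.39, SE 0.28, adjusted p = 8.45e-06, limma; scaled -1.10, adjusted p = 0.139). The most abundant members at 5 DPA were TRIUR3_33524, TRIUR3_14140, TRIUR3_04286 and TRIUR3_32613. TRIUR3_33524 had 36.1, 36.0 and 37.5 FPKM at 10 DPA, against 82.3, 85.1 and 80.8 FPKM at 5 DPA, a log2 change of -1.16 (SE 0.67) that did not pass (adjusted p = 0.153; scaled 0.08). Its 2 groups of libraries did not overlap.

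At 15 against 10 DPA, several members expressed at 5 or 10 DPA fell to or near 0. As deposited, 13 members were called lower at 15 DPA and 0 higher, and 0 were higher at an unadjusted p below 0.05, while 17.9% of all genes were called, 1.28% higher and 16.7% lower. After scaling, 8 were called lower and 3 higher, against 7.86% and 3.76% of all genes, and all 8 were among the 13. The median change was -0.42 for the members and -0.65 for all genes as deposited, and -0.035 and -0.19 scaled. The 44 members above 0 at both stages had a median of -0.40. Without 25 DPA library 1, which enters only through the shared estimate of the spread, 20 members were called, 17 lower and 3 higher. The share of all genes called in that fit is not given here. The 10 DPA libraries serve here as the reference and in the comparison before as the later stage, so a value that is high at 10 DPA enters both.

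TRIUR3_09915 was the clearest case. It had 1.34, 0 and 0.4 FPKM at 15 DPA, against 22.1, 25.4 and 34.9 FPKM at 10 DPA (log2 change -4.23, SE 0.35, adjusted p = 6.15e-07, limma; scaled -3.41). At 5 DPA it had 20.6, 24.2 and 24.8 FPKM, overlapping 10 DPA, and it was at most 0.34 FPKM at 20 and 25 DPA. TRIUR3_03895 had 1.96, 1.0 and 0.58 FPKM at 15 DPA, against 15.95, 15.9 and 17.9 FPKM at 10 DPA (log2 change -3.06, SE 0.43, adjusted p = 1.46e-04; scaled -2.30). TRIUR3_32754, TRIUR3_17688, TRIUR3_14541 and TRIUR3_32216 were listed at 0 in all libraries at 15 DPA and were called under both scalings. Of these, TRIUR3_32216 passed the filter through 10 DPA alone. TRIUR3_27497 and TRIUR3_32198 completed the 8. The 3 rises called only after scaling were those of TRIUR3_00446, TRIUR3_14109 and TRIUR3_20284. TRIUR3_14109 had 19.3, 26.5 and 20.8 FPKM at 15 DPA, against 13.4, 8.64 and 9.89 FPKM at 10 DPA, without overlap (log2 change 1.00, adjusted p = 0.449; scaled 1.66, adjusted p = 0.00408).

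At 20 against 15 DPA the called changes of the members were all falls as deposited, and after scaling there were calls in both directions. Of the 55 members tested, 18 were called lower and 0 higher, and 0 were higher at an unadjusted p below 0.05. The share called among all genes was 43.7%, 0.69% higher and 43.0% lower, so the members' falls were below the background share. After scaling, 5 members were called lower and 3 higher, against 13.7% and 4.7% of all genes. The median change of the members was -0.79 as deposited and -0.093 scaled, that of all genes -1.09 and -0.30. Only 32 members were above 0 at both stages, with a median of -1.57. Of the 4 members near 0 at 5 DPA, only TRIUR3_11787 was called lower under both scalings (log2 change -3.59, SE 0.67, adjusted p = 0.00165, limma; scaled -1.22, adjusted p = 0.0118). TRIUR3_23644 fell by 3.94 (adjusted p = 0.00259) and TRIUR3_25137 fell by 3.39 (adjusted p = 0.00151) as deposited, but the scaled changes were -1.27 and -0.77 and did not pass. TRIUR3_00446 changed by -2.05 as deposited and 0.33 scaled, so its direction depended on the scaling. The other falls under both scalings were those of TRIUR3_03598, TRIUR3_04286, TRIUR3_24774 and TRIUR3_26867. Of these, TRIUR3_03598, TRIUR3_24774 and TRIUR3_26867 were listed at 0 in all 20 DPA libraries, and a 0 stays 0 under either scaling. Their means at 15 DPA were only 3.34, 2.44 and 1.85 FPKM. The fall of TRIUR3_03598 was not called without 15 DPA library 1 or 20 DPA library 1, and that of TRIUR3_24774 not without 15 DPA library 3.

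TRIUR3_14109 was the most abundant member at 20 DPA. It had 16.4, 17.5 and 11.4 FPKM at 20 DPA, against 19.3, 26.5 and 20.8 FPKM at 15 DPA, with a mean of 15.1 ± 3.28 FPKM at 20 DPA (SD, n = 3). As deposited the change was -0.54 (SE 0.89, adjusted p = 0.671, limma), and scaled it was 2.24 (adjusted p = 5.08e-04), a rise. TRIUR3_20284 had 6.88, 11.6 and 6.15 FPKM at 20 DPA, against 31.2, 40.6 and 63.5 FPKM at 15 DPA, and TRIUR3_33524 had 0.92, 2.34 and 1.12 FPKM, against 12.5, 15.5 and 16.03 FPKM. Both were called lower as deposited, TRIUR3_33524 by 2.71 (SE 0.67, adjusted p = 0.00659) and TRIUR3_20284 by 2.31 (SE 0.87, adjusted p = 0.0419). Neither passed after scaling, where the change of TRIUR3_20284 was 0.40 and that of TRIUR3_33524 -0.53, and the call of TRIUR3_20284 was also lost without any 1 of 12 libraries.

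The 25 DPA libraries differed widely among themselves, and the comparison with 20 DPA turned on single libraries. As deposited, 7 members were called higher and 0 lower, with 35.4% of all genes called, 35.3% higher and 0.154% lower, so the members' rises, 12.7% of those tested, were below the background share. Scaled, 0 were called higher and 3 lower (TRIUR3_25713, TRIUR3_27393 and TRIUR3_29857), against 8.02% and 3.66% of all genes, and the median change of all genes was 1.00 as deposited and 0.16 scaled, that of the members 0.47 and -0.28. Without 25 DPA library 1, 24 members were called higher, without library 2 or library 3 of that stage 0, and without 20 DPA library 1, 2 or 3 there were 0, 1 and 1. The share of all genes called in these fits is not given here, so the count of 24 has no background beside it. With only the 20 and 25 DPA libraries in the fit, 0 were called. The rises with a mean of at least 5 FPKM were those of TRIUR3_12483, TRIUR3_14140, TRIUR3_23644 and TRIUR3_32613.

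TRIUR3_12483 had 2.15, 24.9 and 26.6 FPKM at 25 DPA, against 1.03, 0 and 2.57 FPKM at 20 DPA (log2 change 2.76, SE 0.72, adjusted p = 0.0158, limma; scaled 1.34, adjusted p = 0.279). TRIUR3_14140 had 1.92, 37.7 and 58.0 FPKM at 25 DPA, against 2.31, 2.94 and 1.13 FPKM at 20 DPA (log2 change 2.63, SE 0.83, adjusted p = 0.0273; scaled 0.47). In both cases 25 DPA library 1 lay within the range of 20 DPA and the other 2 libraries far above it. TRIUR3_14109 gave 6.16, 135 and 182 FPKM at 25 DPA, the highest mean of that stage, and did not pass against 20 DPA (adjusted p = 0.114).

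Across the whole of filling, at 25 against 5 DPA, 5 members were called higher and 34 lower, 9.09% and 61.8% of those tested. Among all genes 75.6% were called, 3.6% higher and 72.0% lower. Scaled, 5 were called higher and 13 lower, 10.9% and 28.3% of those tested, against 9.38% and 25.6% of all genes. The members' falls were thus below the background share as deposited and near it scaled, and the scaled rises were near it too. The median change of the members was -1.76 as deposited and -0.50 scaled, against -1.99 and -0.44 for all genes. It was -2.002 as deposited over the 38 members above 0 at both stages. The 4 members higher under both scalings were TRIUR3_23644, TRIUR3_25137, TRIUR3_11787 and TRIUR3_00446, which have their 5 DPA libraries in common with the comparison of 10 with 5 DPA. TRIUR3_11787, for example, had 0.98, 23.8 and 12.2 FPKM at 25 DPA, against 0, 0.47 and 0 FPKM at 5 DPA (log2 change 2.93, SE 0.67, adjusted p = 0.00116, limma; scaled 3.08). TRIUR3_14210 was called higher as deposited only, and TRIUR3_14109 scaled only. With the 3 genes set aside, 8 NAC genes were called higher.

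All 13 falls called after scaling were also called as deposited. The largest was that of TRIUR3_32754, which was listed at 0 in all 25 DPA libraries. TRIUR3_03895 had 0, 1.95 and 0 FPKM at 25 DPA, against 53.3, 67.8 and 64.0 FPKM at 5 DPA (log2 change -5.44, SE 0.43, adjusted p = 4.73e-08, limma; scaled -3.52). TRIUR3_04286 had 0, 3.84 and 1.37 FPKM, against 106, 58.5 and 67.0 FPKM at 5 DPA (log2 change -5.07, SE 0.54, adjusted p = 1.08e-06; scaled -3.35). By the F-test over the 5 stages, 48 of the 55 members differed among stages as deposited, against 92.1% of all genes, and 32 of 46 after scaling, against 54.9%.

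**Figure D4:**
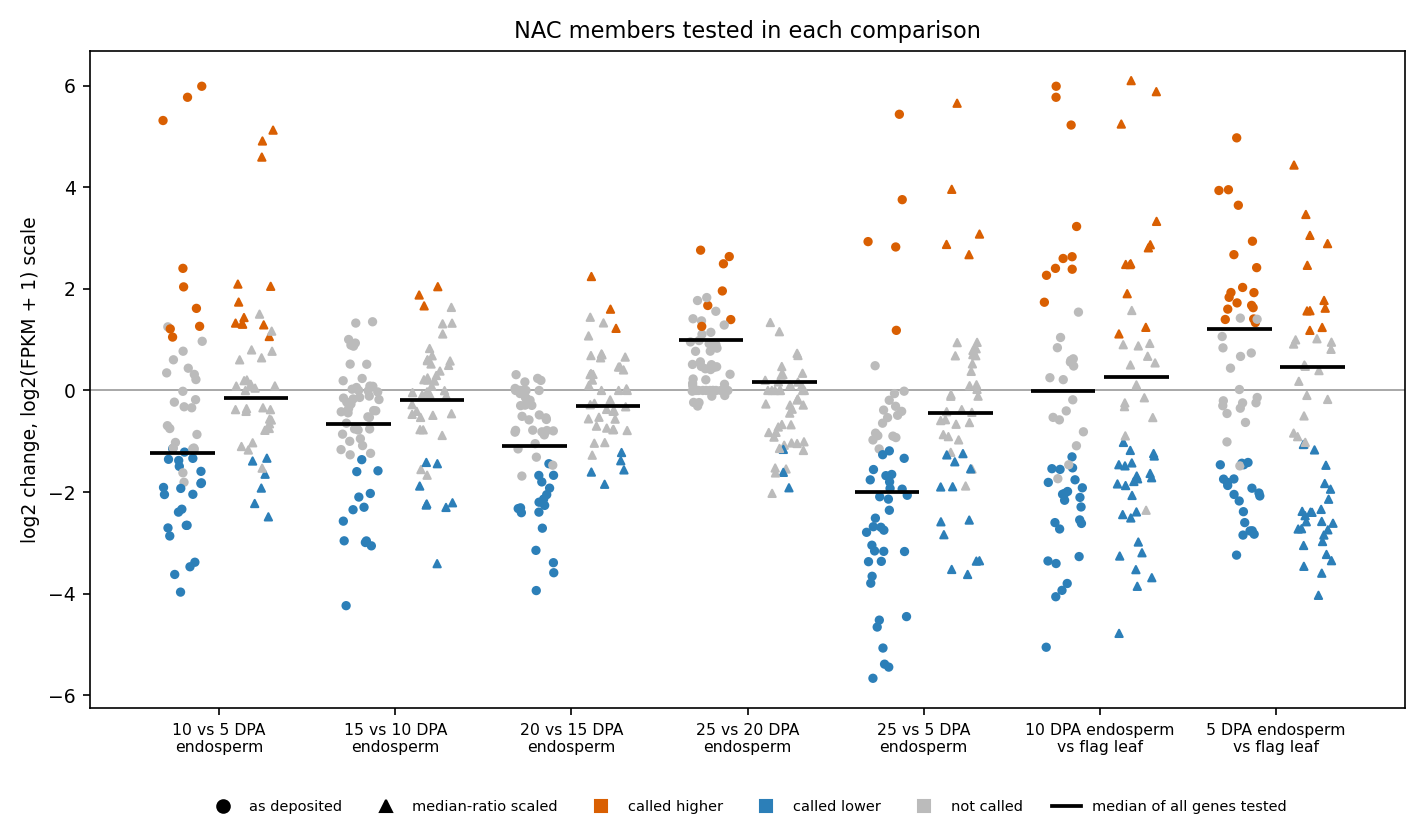
Change of each tested member on the log2(FPKM + 1) scale in 7 comparisons, later stage over earlier stage or endosperm over leaf, from the values as deposited (circles) and after median-ratio scaling (triangles); black bars are the median of all genes tested and colours mark calls. In the stage comparisons the bars lie nearer to 0 after scaling, at -0.14 scaled and -1.23 as deposited for 10 against 5 DPA.

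The tissue comparison at matched age, 10 DPA endosperm against flag leaf, showed more members low in endosperm than high. Of the 51 members tested, 10 were called higher in endosperm and 24 lower. All genes were called in 48.8% of cases, 21.7% higher and 27.1% lower, and the 1003 genes of the 51 other transcription factor families gave 141 higher and 161 lower of 583 tested. The median change was -1.31 for the members, 0.12 for the other families and -0.005 for all genes. Scaled, 12 members were called higher and 25 lower, against 28.8% and 25.9% of all genes, with medians of -1.02 for the members and 0.27 for all genes. The 42 members above 0 in both tissues had a median of -1.38 as deposited, with 5 called higher and 20 lower. Members listed at 0 in 1 tissue, 4 in endosperm and 5 in leaf, passed the filter through the other tissue alone. So did, for example, TRIUR3_11787 and TRIUR3_10971. All 10 rises and 23 of the 24 falls were called under both scalings. With the 3 genes set aside, 13 NAC genes were called higher. Leaving out 1 library at a time gave 24 to 37 calls.

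The members highest over leaf were TRIUR3_23644 and TRIUR3_25137, with the 10 DPA values given above and 0 in all leaf libraries (adjusted p = 7.44e-06 and 1.02e-05, limma). TRIUR3_11787 had 45.2, 43.7 and 43.7 FPKM in endosperm, against 0.77, 0 and 0 FPKM in leaf (log2 change 5.22, SE 0.37, adjusted p = 2.39e-05; scaled 5.24). TRIUR3_27497, TRIUR3_32198 and TRIUR3_00446 were also listed at 0 in leaf and called higher in endosperm. TRIUR3_09915 had 22.1, 25.4 and 34.9 FPKM in endosperm, against 3.4, 2.52 and 4.92 FPKM in leaf (log2 change 2.63, SE 0.36, adjusted p = 5.73e-04; scaled 2.87). The other members higher in endosperm were TRIUR3_21467, TRIUR3_27393 and TRIUR3_32754, and the call of TRIUR3_32754 was lost without 10 DPA library 1 or 3 or leaf library 1 or 3.

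TRIUR3_04286 was the most abundant member in leaf and the one lowest relative to it. It had 9.09, 2.21 and 6.19 FPKM in 10 DPA endosperm, against 175, 229 and 209 FPKM in leaf (log2 change -5.05, SE 0.45, adjusted p = 6.98e-05, limma; scaled -4.78). TRIUR3_21221 had 6.94, 2.18 and 10.4 FPKM in endosperm, against 84.7, 92.5 and 95.2 FPKM in leaf (log2 change -3.80, SE 0.48, adjusted p = 3.85e-04; scaled -3.53). TRIUR3_10971 had 0.41, 0.77 and 0 FPKM in endosperm, against 15.2, 21.8 and 30.2 FPKM in leaf (log2 change -4.06, SE 0.41, adjusted p = 1.2e-04; scaled -3.85). TRIUR3_16902 had 2.08, 1.32 and 1.41 FPKM in endosperm, against 23.7, 34.6 and 68.8 FPKM in leaf (log2 change -3.93, SE 0.44, adjusted p = 2.18e-04; scaled -3.68). In each of these 4 the groups were far apart and the call held without any 1 library.

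TRIUR3_05221 was listed at 0 in all 10 DPA endosperm libraries, against 12.4, 5.01 and 13.7 FPKM in leaf, and had 1 endosperm library above 0 in all, with 2.32 FPKM at 5 DPA. TRIUR3_34272, TRIUR3_18560 and TRIUR3_33275 were listed at 0 in all 15 endosperm libraries, named here after their values were seen. TRIUR3_34272 had 3.43, 6.81 and 5.44 FPKM in leaf, whereas TRIUR3_33275 was at 0 in leaf library 1 and did not pass the filter. TRIUR3_14109 and TRIUR3_20284, which are broadly expressed in endosperm, were lower there as well: TRIUR3_14109 had 13.4, 8.64 and 9.89 FPKM in endosperm, against 57.7, 97.2 and 234 FPKM in leaf (log2 change -3.27, SE 0.51, adjusted p = 0.00115; scaled -2.98). The call of TRIUR3_20284 was lost without 10 DPA library 2. TRIUR3_33524 had 36.1, 36.0 and 37.5 FPKM in endosperm, within the 16.9, 37.7 and 44.3 FPKM of leaf (adjusted p = 0.642).

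**Figure D5:**
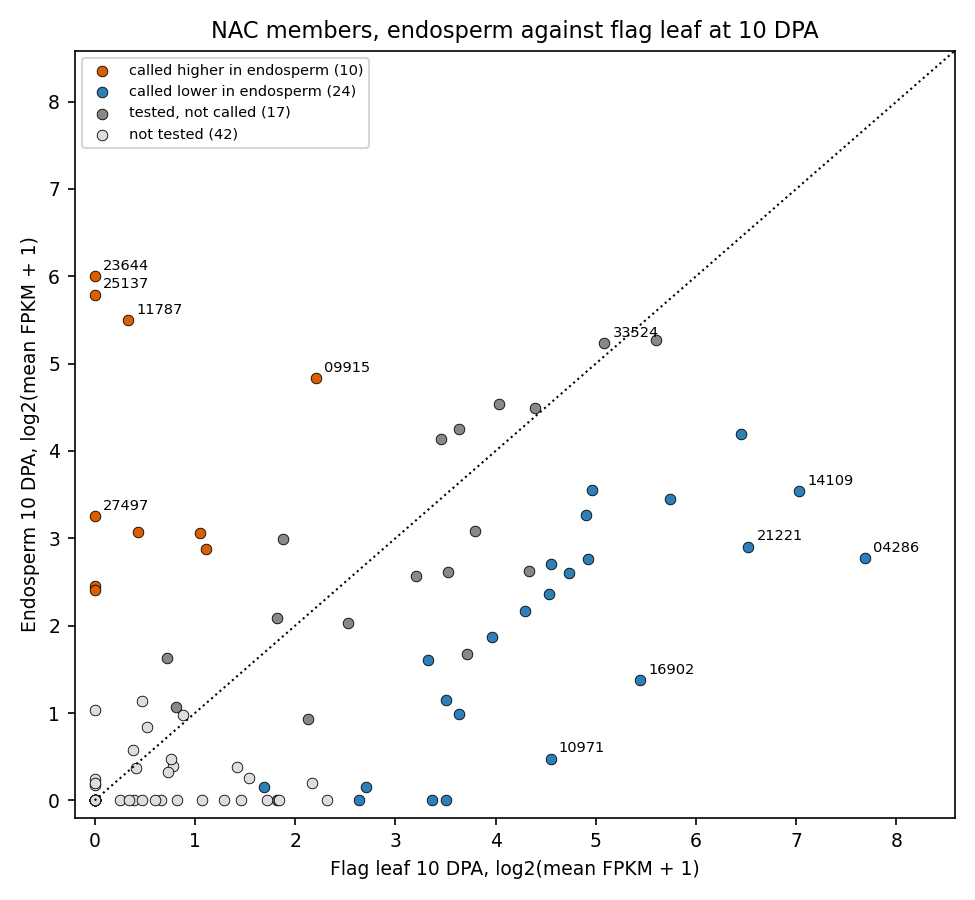
Mean level of the 93 members in 10 DPA endosperm (vertical) against 10 DPA flag leaf (horizontal), both as log2(mean FPKM + 1), with the line of equal levels dotted and colours for calls. The 10 members called higher in endosperm lie above the line and several of them on the left edge at 0 in leaf, the 24 called lower lie below it, and 42 members were not tested.

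At 5 DPA, before storage proteins were abundant, many members were expressed in both endosperm and leaf. Both groups had a mean of at least 1 FPKM for 38 members as deposited and for 27 after scaling. This was not counted for all genes. Of the 56 members tested, 18 were called higher in 5 DPA endosperm and 20 lower than in leaf, while all genes were called in 62.4% of cases, 49.6% higher and 12.8% lower. Scaled, 11 were called higher and 25 lower, against 31.1% and 21.1% of all genes (52.2% either way), and the median change was -0.22 for the members and 1.22 for all genes as deposited, -1.04 and 0.47 scaled. Under both scalings 11 rises and 20 falls were called. Members listed at 0 in 1 group, 2 at 5 DPA and 2 in leaf, passed the filter through the other group alone. The 52 members above 0 in both groups had a median of -0.22 as deposited, with 16 called higher and 18 lower. This comparison uses the same leaf libraries as the one at 10 DPA and also differs in age. The genes abundant in leaf were higher at 5 DPA than at any later endosperm stage, with the medians given above, and their part in the levels of leaf members at 5 DPA was not tested.

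TRIUR3_32754 had 42.2, 37.4 and 77.5 FPKM at 5 DPA, against 0, 3.22 and 0 FPKM in leaf (log2 change 4.97, SE 0.63, adjusted p = 4.25e-04, limma; scaled 4.43). TRIUR3_33179 had 16.9, 19.8 and 31.4 FPKM, against 0, 0 and 2.26 FPKM in leaf (log2 change 3.95, SE 0.54, adjusted p = 6.13e-04; scaled 3.46). TRIUR3_17688, TRIUR3_27393 and TRIUR3_34571 were higher at 5 DPA than in leaf under both scalings too, by 3.94, 3.64 and 2.94 as deposited. TRIUR3_34571 passed the filter through its 5 DPA libraries alone here as well. TRIUR3_27911, named after its values were seen, had 2.5, 3.33 and 2.63 FPKM at 5 DPA, whereas the other 15 libraries listed it at 0. It thus passed the filter through that stage alone.

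Several members abundant in leaf were called lower at 5 DPA as well. TRIUR3_04286 had 106, 58.5 and 67.0 FPKM at 5 DPA, against 175, 229 and 209 FPKM in leaf (log2 change -1.43, SE 0.33, adjusted p = 0.00703, limma; scaled -2.38). TRIUR3_21221 had 27.7, 25.4 and 47.8 FPKM at 5 DPA, against 84.7, 92.5 and 95.2 FPKM in leaf (log2 change -1.46, SE 0.34, adjusted p = 0.00708; scaled -2.39). TRIUR3_16902 had 1.75, 3.57 and 4.79 FPKM at 5 DPA, against 23.7, 34.6 and 68.8 FPKM in leaf (log2 change -3.24, SE 0.49, adjusted p = 0.00101; scaled -4.03). TRIUR3_10971, TRIUR3_05221, TRIUR3_24111 and TRIUR3_18561 completed the largest falls, with changes between -2.85 and -2.76. Of these, TRIUR3_18561 had 0, 0.64 and 0.36 FPKM at 5 DPA, so it passed the filter through leaf alone.

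The remaining 24 members stayed under a mean of 1 FPKM in every group as deposited, and 6 of them reached a mean of 1 after median-ratio scaling, 5 with their highest mean at 20 DPA and 1 at 25 DPA. Each was above 0 in 1 to 9 of the 18 libraries, their highest library values ranged between 0.3 and 2.3 FPKM, and 9 of them reached 1 FPKM in some library. A level this low does not show that a gene is silent, since the read depth behind an FPKM value is not given in the files.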

How the data were processed

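The authors' deposited table holds 1 FPKM value per gene and library. Reads were handled with Bowtie 0.12.2, per the submitters' processing notes; the counting program, genome build and annotation were not given in the sources used here. Column headings tie libraries to groups only, so library numbers are column numbers; 0 value columns were left unmapped. Read depth is not in the files, and the smallest FPKM steps of weak genes gave relative depths of 0.538 to 1.06 of 10 DPA library 1 (leaf library 1 not estimated).

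The deposited FPKM values were moved to a log2 scale with a pseudocount of 1 and fitted by limma 3.58.1 (R 4.3.3, trended moderated variances). Stages were fitted over all 15 endosperm libraries and tissues over the 6 libraries of both groups, for genes of at least 1 FPKM in at least 3 of them. A gene near 0 elsewhere can pass this filter through 1 group alone, and its test then rests on a gene picked by the group where it is high. Values adjusted by Benjamini-Hochberg over all genes tested were called below 0.05 with a log2 change of at least 1. P-values measure the spread between the deposited libraries. Scripts were tested on simulated data.

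The 29 members named by rule were up to 4 of highest mean per group, up to 5 largest called rises and falls per comparison without overlap and with a mean of at least 5 FPKM, every called rise between neighbouring stages at that mean, and up to 4 concentrated members per group with a mean of at least 10 FPKM. Others were named after their values were seen. Members and lists were chosen with earlier results of these data known. Alternatives were a pseudocount of 0.1, no filter, median-ratio scaling, leaving out each library, fits of other library sets, and detection at a mean of 5 FPKM. No sequence of a member was at hand, and chromosome positions were not used here.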

Additional observations from a re-analysis of the deposited data

How the results depend on the processing

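No paired analysis was possible because the column headings carry no replicate number of the labels. Of 106 calls of named members, 93 held with a pseudocount of 0.1 and 102 without the filter. Median-ratio scaling kept 71 of 102, left 25 below the threshold and turned 6 round: TRIUR3_00446 (0.33), TRIUR3_20284 (0.40) and TRIUR3_32613 (0.033) at 20 against 15 DPA, TRIUR3_12483 (0.38) and TRIUR3_14140 (0.093) at 25 against 5 DPA, and TRIUR3_32613 (-0.19) at 25 against 20 DPA. The number of members called at 10 against 5 DPA was 32, and 21 with a pseudocount of 0.1 (6 higher, 15 lower) and 18 after scaling. Scaling gave 8 calls at 20 against 15 DPA, 3 at 25 against 20 DPA and 18 at 25 against 5 DPA; with the compared groups only, 0 members were called at 25 against 20 DPA. Without 1 library the calls ranged over 25 to 38 at 10 against 5 DPA, 11 to 20 at 15 against 10, 14 to 21 at 20 against 15, 0 to 24 at 25 against 20 and 36 to 43 at 25 against 5, 46 to 51 in the F-test, and 24 to 37 and 31 to 40 for 10 and 5 DPA endosperm against leaf. These counts have no share of all genes beside them. At a mean of at least 5 FPKM, 30 members were detected at 5 DPA, 28 at 10, 18 at 15, 3 at 20 and 14 at 25 DPA, and 33 in leaf; after scaling, 32 were detected at 5 DPA and 38 at 20 DPA. The cause was not tested. FPKM gives no counting error, so the limit that a value near 0 sets on a transcript's abundance was not estimated. The 25 DPA results rest on libraries that differ in composition.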

Other observations

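Of the 96 NAC genes, 24 have an identifier next to that of another NAC gene, in 11 runs, and 22 of these 24 are members. In 3 runs with 7 members all were highest in leaf (TRIUR3_10969 to TRIUR3_10971, TRIUR3_18560 and TRIUR3_18561, TRIUR3_24878 and TRIUR3_24879), and in 3 runs with 7 members none reached a mean of 1 FPKM in any group. In 3 runs the neighbours differed in their top group. TRIUR3_14541 had 6.26, 4.69 and 7.19 FPKM at 5 DPA and 5.48, 7.59 and 11.6 FPKM in leaf, whereas its neighbour TRIUR3_14542 had 36.3, 29.0 and 138.6 FPKM at 5 DPA and 8.24, 11.2 and 24.3 FPKM in leaf. At 15 DPA, TRIUR3_14541 was listed at 0 in all libraries, and TRIUR3_14542 had 3.71, 4.71 and 8.3 FPKM. TRIUR3_24110 and TRIUR3_24111 differed in leaf, where TRIUR3_24110 was listed at 0 and TRIUR3_24111 had 7.44, 22.8 and 25.8 FPKM. Whether neighbouring identifiers are neighbours on a chromosome was not examined, and reads shared between related genes could not be separated.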
